A study of Mus musculus with 12 samples.

Results

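Transcription factors of the developmental and lineage families were measured in RNA from mouse aortic endothelial cells, the cells that line the aorta. The genes were chosen by a rule on symbols that uses no measured value, though it was set with earlier results of these data known. They were every Hox, Sox, Fox, Klf, Gata and Tbx gene with a row in the deposited table, with Ets1, Ets2, Elk1, Elk3, Elk4, Erg, Fli1, Spi1, Meox1, Tal1, Lyl1 and the Mef2, Runx and Cebp genes, and without Sox17, Klf2 and Klf4. They came to 57 of 10655 genes. There were 8 Ets genes, 4 Sox genes, 5 of the Gata, Tal1 and Lyl1 group, 9 Hox and Meox genes, 11 Fox genes, 8 Klf genes, 3 Mef2 genes, 1 Tbx gene, 3 Runx genes and 5 Cebp genes. RefSeq lists 159 protein-coding mouse genes with symbols of this kind, of which 102 have no row here, Meox2, Tbx20 and Tbx21 among them.

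The libraries were made with SMART-seq, which copies whole transcripts, and fell into 4 groups of 3 by diet. WD_WD came from WD offspring of WD mothers, CD_WD from WD offspring of CD mothers, WD_CD from CD offspring of WD mothers and CD_CD from CD offspring of CD mothers. The mother's diet is read as standing before the offspring's in each name, in the order that the description of the series uses. It says that WD offspring received WD again for 4 weeks. CD and WD are kept as labelled, and atherosclerosis and a mother's high-fat diet are named in the title of the series. No genotype, strain, sex, age, sorting step or batch is given, nor whether replicates are separate animals or pools, so p-values cover no more than the spread among these libraries, which could be technical.

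These factors bind DNA and set which genes a cell type keeps active. In endothelium, ERG and FLI1 of the ETS family, the SOXF factors SOX7 and SOX18, GATA2 and TAL1 maintain vessel identity genes, and FOXO1 holds endothelial growth in check. HOX factors record position along the body axis, and FOXC1, GATA6, TBX1 and MEOX1 act in the heart, the great vessels and the mural cells around vessels. PU.1, the product of Spi1, together with C/EBP and RUNX factors drives the blood lineages, with PU.1 and C/EBP factors best known from macrophages and granulocytes. KLF factors are zinc finger proteins that answer to flow, hormones and growth signals in many cells.

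In WD offspring, Spi1 and some of the C/EBP and RUNX factors known from blood cells rose, and Erg, the Sox genes, Foxc1 and several Hox genes known from vessels and the body axis fell. Averaged over both mothers, 7 of the 57 genes rose (Spi1, Cebpb, Cebpe, Runx1, Runx3, Klf6 and Klf10) and 19 fell. The genes that fell were Erg, Elk3, Sox4, Sox7, Sox13, Sox18, Gata2, Gata6, Hoxa5, Hoxa9, Hoxb2, Hoxb3, Hoxb7, Foxc1, Foxj2, Klf7, Klf9, Mef2a and Tbx1. Rises and falls are named only where limma's Benjamini-Hochberg adjusted p over all genes was under 0.05, on normalised counts put on a log2 scale after adding 1. Of all 10655 genes, 37.8% passed, 20.1% higher and 17.6% lower, against 12.3% of the transcription factors higher and 33.3% lower. Their median log2 fold change was -0.89, against -0.02 over all genes. In 6 of them every WD offspring library lay above every CD offspring library (12.6% of all genes), and in 15 every one lay below (9.69% of all genes).

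Leaving out any single library kept 22 of the 26 calls. Cebpe, Hoxb3, Hoxb7 and Tbx1 did not keep theirs, as given below. The deposited values centre each library on its typical gene. With equal library totals in place of this, the median of all genes lay at -1.40, 3 transcription factors rose and 44 fell, and all 26 calls kept their sign relative to that median, but Cebpe, Runx1, Klf6 and Klf10 no longer passed; Fli1, Foxo1, Gata3, Meox1 and Tal1 were among the genes that then did. The share of higher calls among the called factors was then 6.38%, against 26.9% with the deposited scaling. The share of all genes called with equal totals is not given here, so these counts cannot be read as particular to the factors.

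**Figure D1:**
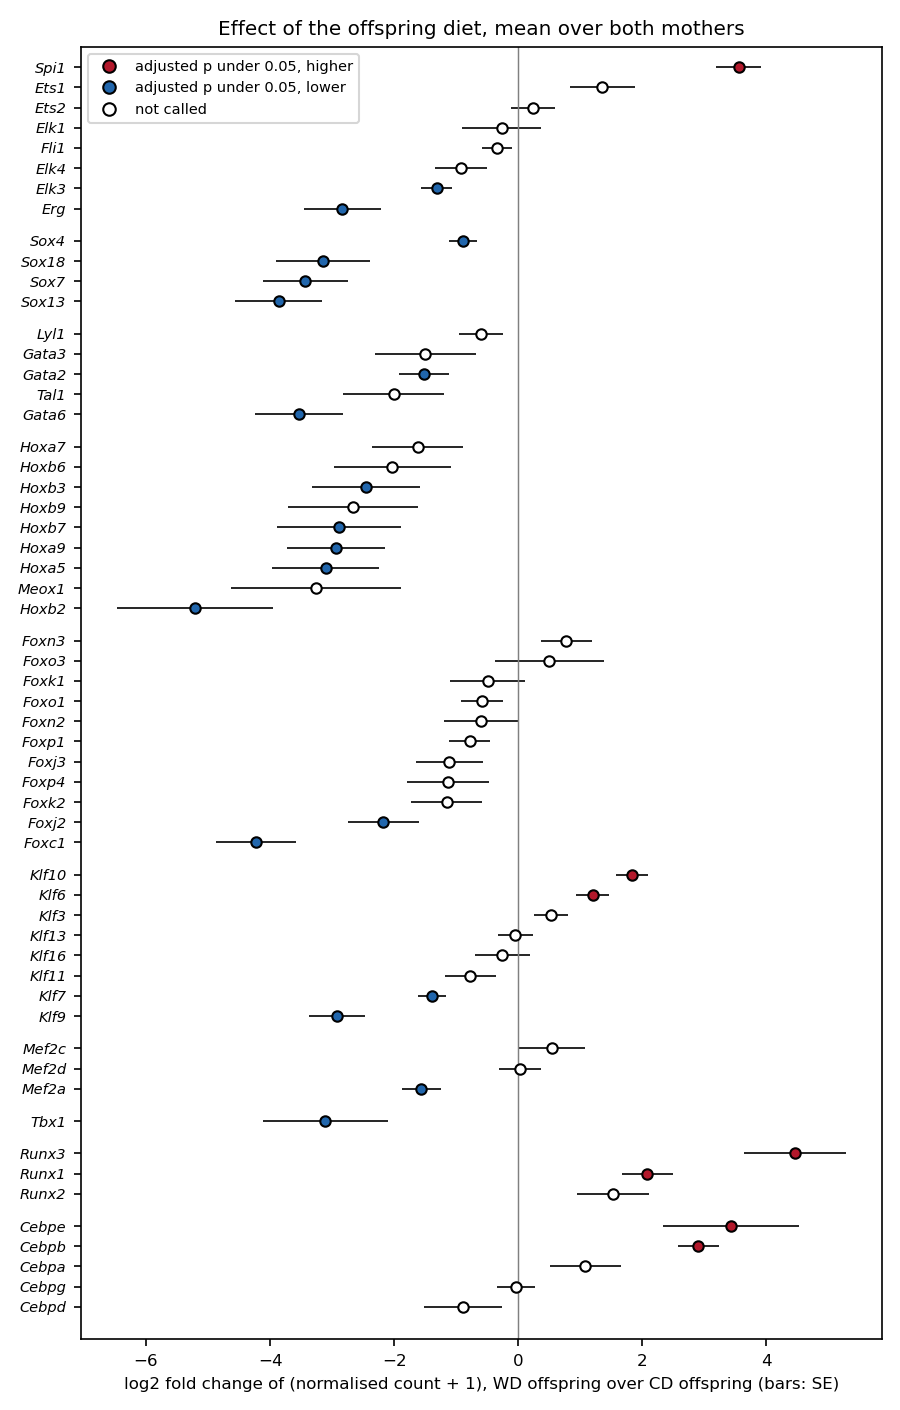
Log2 fold change of normalised count plus 1 (x axis), WD offspring over CD offspring averaged over both mothers, for the 57 transcription factors grouped by family; bars are standard errors, red and blue points passed limma's adjusted p of 0.05 and white points did not. The 4 Sox genes and all 9 Hox and Meox genes lie left of 0, and the 3 Runx genes lie right of it.

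Marker genes of several cell types moved as well. Of 15 pan-endothelial marker genes, 14 fell in WD offspring, and their summed normalised counts were 13004 to 22563 in WD_WD, 4119.8 to 40864 in CD_WD, 67463 to 96581 in WD_CD and 87665 to 110035 in CD_CD. Of 12 macrophage markers 7 rose, with sums of 557539 to 1028122 in WD_WD, 40501 to 540119 in CD_WD, 10978 to 114009 in WD_CD and 20938 to 34106 in CD_CD. Calls in the higher direction also covered 5 of 6 neutrophil, 8 of 8 dendritic and MHC class II, 5 of 8 T and NK cell, 4 of 4 B cell and the 1 measured erythroid marker, while 10 of 11 smooth muscle and 2 of 8 fibroblast markers fell. None of 2 Schwann cell and 5 adipocyte markers passed. Over all genes 20.1% were called higher and 17.6% lower. Markers at 0 in at least 1 library included Robo4 of the endothelial, Lmod1 of the smooth muscle, Csf3r and Il1r2 of the neutrophil, Flt3 and Cd209a of the dendritic, and Cd79b of the B cell markers. In such bulk samples fewer cells of a type and less RNA per cell cannot be told apart, and the part of these markers in the results below was not tested.

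**Figure D2:**
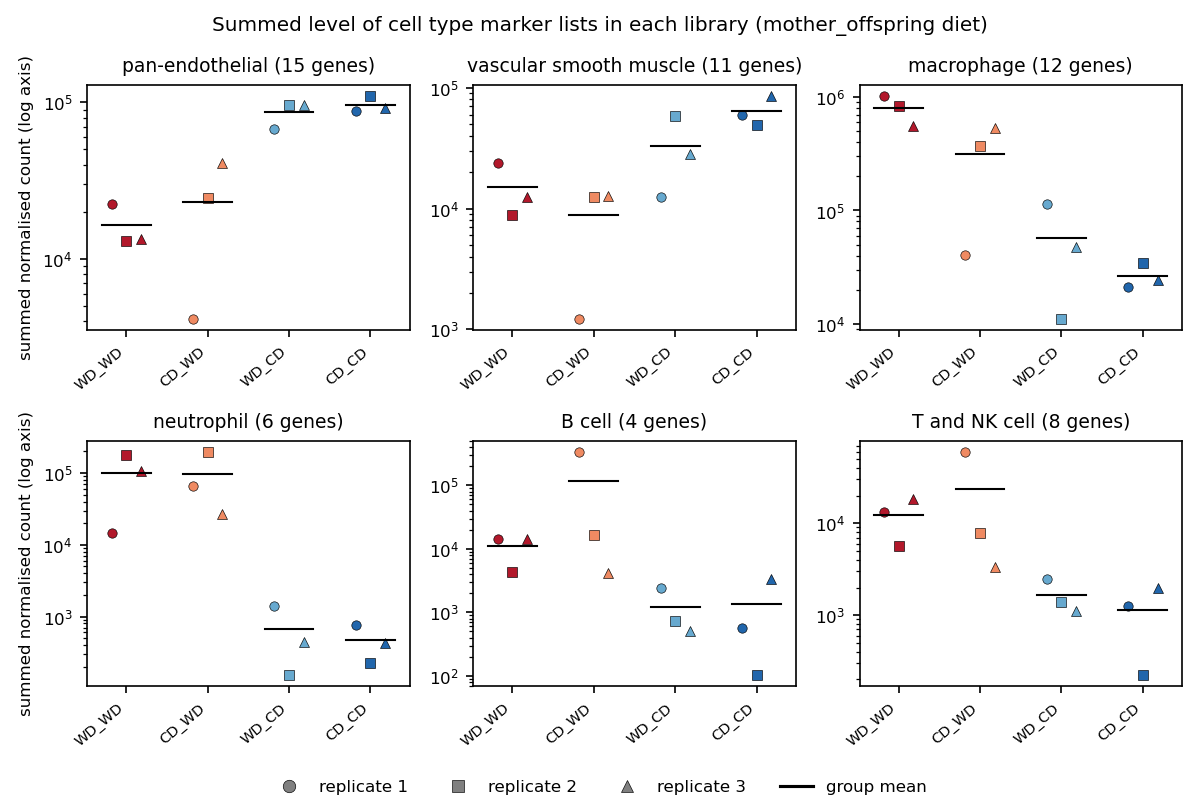
Summed normalised counts of 6 marker lists in each library (log axis), in the order WD_WD, CD_WD, WD_CD and CD_CD, with a line at each group mean. The endothelial sum is lowest in CD_WD replicate 1 at 4119.8, the library in which the B cell sum reaches 335294.

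Reads in the table numbered 4074413 to 19670570 per library. The worth of 1 read was 0.347 to 0.669 normalised counts in CD offspring libraries and 0.861 to 3.96 in WD offspring libraries. The same normalised count therefore rests on fewer reads in WD offspring, and depth cannot be told apart from diet for low values and values of 0. CD_WD replicate 1 stood apart within its group. It held the lowest value of all 12 libraries for 17 of the 57 factors (29.8%, against 14.9% of all genes) and the highest for 13 (22.8%, against 17.7%), so results that turn on it are also given without it. Without it, the comparison averaged over mothers called 7 factors higher and 19 lower, with 37.3% of all genes called. These were not all the same genes: 24 of the 26 calls were kept. Hoxb3 and Hoxb7 lost theirs, and Foxo1 and Foxp1 were called lower instead. Without it and WD_CD replicate 3, which also stood apart, the counts were 6 and 19, with 35.0% of all genes called. Several factors that fell had few reads in some WD offspring libraries, so the size of their change is imprecise. CD_WD replicate 1 had 5 reads for Erg, 7 for Sox7, 4 for Sox13, 4 for Gata6, 2 for Hoxa9 and 1 for Tbx1. In WD_WD replicate 3 there were 6 for Erg, 5 for Sox7, 2 for Sox13, 21 for Gata6, 2 for Hoxa9 and 1 for Tbx1.

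Promoters from RefSeq (assembly GRCm38.p6, 250 bases before to 50 after the annotated start, plus strand for all 4) are shown for 2 factors that rose, Cebpb at chr2:167688665-167688964 and Klf6 at chr13:5861239-5861538, and 2 that fell, Foxc1 at chr13:31806396-31806695 and Klf9 at chr19:23140976-23141275. They are the called genes with the smallest p in each direction that have a single start in the table used. Capitals mark the TATA box letters TATAAA, the GC box letters GGGCGG and the CCAAT box on either strand, so that CCAAT on the minus strand appears as ATTGG; neighbouring matches can join or overlap.
Cebpb: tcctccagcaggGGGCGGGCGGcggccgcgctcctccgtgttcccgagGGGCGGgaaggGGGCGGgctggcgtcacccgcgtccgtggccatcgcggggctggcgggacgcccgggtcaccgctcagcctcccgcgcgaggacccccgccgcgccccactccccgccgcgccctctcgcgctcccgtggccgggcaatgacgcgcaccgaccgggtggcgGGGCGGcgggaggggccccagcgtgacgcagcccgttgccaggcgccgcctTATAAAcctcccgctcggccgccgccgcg
Klf6: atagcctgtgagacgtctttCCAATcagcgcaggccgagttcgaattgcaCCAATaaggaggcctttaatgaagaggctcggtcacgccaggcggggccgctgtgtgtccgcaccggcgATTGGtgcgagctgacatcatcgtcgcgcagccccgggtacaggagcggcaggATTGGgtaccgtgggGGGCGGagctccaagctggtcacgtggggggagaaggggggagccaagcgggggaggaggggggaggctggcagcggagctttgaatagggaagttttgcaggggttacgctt
Foxc1: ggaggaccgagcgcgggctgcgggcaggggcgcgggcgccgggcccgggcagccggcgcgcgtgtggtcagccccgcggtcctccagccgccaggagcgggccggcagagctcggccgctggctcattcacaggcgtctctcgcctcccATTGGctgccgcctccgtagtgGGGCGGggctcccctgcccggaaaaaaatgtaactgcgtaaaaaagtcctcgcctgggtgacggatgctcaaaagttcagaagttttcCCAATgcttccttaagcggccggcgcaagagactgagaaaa
Klf9: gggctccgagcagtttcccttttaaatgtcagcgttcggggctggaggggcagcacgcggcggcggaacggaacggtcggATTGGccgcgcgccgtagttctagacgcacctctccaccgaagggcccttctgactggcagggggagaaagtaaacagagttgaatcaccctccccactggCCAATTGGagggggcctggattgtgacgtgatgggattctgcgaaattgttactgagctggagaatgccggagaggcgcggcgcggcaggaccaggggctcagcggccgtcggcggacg
Cebpb shows the TATA letters from 21 bases past its annotated start and GGGCGG at 5 places, while Klf6 shows CCAAT at 4 places and GGGCGG at 1. Foxc1 shows CCAAT at 2 places and GGGCGG at 1, and Klf9 shows CCAAT at 3 places and no GGGCGG. Of the 57 factors 39 had a promoter in the table, with 52 windows. GGGCGG was in 59.6% of these windows, against 35.7% of all 32851 windows, CCAAT in 42.3% against 37.4%, TATAAA in 9.62% against 13.6%, TGACG in 26.9% against 20.8% and AGATAA in 3.85% against 11.2%. The median number of CpG pairs in a window was 27 for the factors, 29 for the 4 that rose with a window and 27 for the 13 that fell with one, against 7 for all genes. These matches describe the letters only.

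The clearest rise was in Spi1, which encodes PU.1, the ETS factor of macrophages, granulocytes and B cells. Spi1 had 3866, 6763 and 2677 normalised counts in WD_WD, 2378, 4289 and 3377 in CD_WD, 764, 194 and 284 in WD_CD, and 219, 244 and 407 in CD_CD. The WD offspring libraries were all far above the CD offspring libraries, with no overlap, and the log2 fold change was 3.55 ± 0.36 (SE; limma adjusted p = 2.95e-05). Cebpb encodes C/EBPβ, which drives macrophage and acute phase genes. It had 7149, 12884 and 2969.6 normalised counts in WD_WD, 6404, 10474 and 5635 in CD_WD, 1209, 976 and 901 in WD_CD, and 976, 609 and 943 in CD_CD. All 6 WD offspring values again lay above all CD offspring values, at a log2 fold change of 2.90 ± 0.33 (limma adjusted p = 5.77e-05). About 20.7% of its exon bases overlap Tmem189 on the other strand, and since the handling of strand is not given in the sources used here, reads of the pair cannot be told apart.

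Cebpe and Cebpa, the granulocyte factors of the same family, stood differently. Cebpe was low throughout, with 61.6, 153 and 206 normalised counts in WD_WD, 33.0, 144 and 36.2 in CD_WD, 65.3, 0 and 0 in WD_CD, and 22.2, 5.72 and 21.5 in CD_CD, and it rose by 3.43 ± 1.09 on the log2 scale (limma adjusted p = 0.0256). Its highest CD offspring value, in WD_CD replicate 1, overlapped the WD offspring libraries, and the call was lost without any 1 of 6 libraries: WD_WD replicate 2 or 3, CD_WD replicate 2, WD_CD replicate 2 or 3, or CD_CD replicate 2 (adjusted p at most 0.0688). Without WD_CD replicate 1 its log2 fold change was 4.44. Cebpe also did not pass with equal library totals (2.29, adjusted p = 0.114) or on recovered reads with edgeR (2.28, adjusted p = 0.153) and DESeq2 (2.40, adjusted p = 0.0626). Cebpa had 177, 180.5 and 329 normalised counts in WD_WD, 25.4, 79.5 and 75.7 in CD_WD, 109, 13.9 and 58.2 in WD_CD, and 70.8, 50.3 and 52.7 in CD_CD. The 3 WD_WD values lay above the other 9, and the average over mothers did not pass, at 1.08 ± 0.58 (adjusted p = 0.156). Cebpd, an acute phase factor, and Cebpg, a widely expressed partner of the family, did not pass either, with log2 fold changes of -0.89 ± 0.63 and -0.04 ± 0.31; 15.0% of the Cebpd exon bases overlap Spidr. The family median was 1.08, and -0.30 with equal library totals.

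All 3 Runx genes were higher on average. Runx1, the factor of blood stem cells and macrophages, had 455, 655 and 784 normalised counts in WD_WD, 903, 588 and 313 in CD_WD, 255, 115 and 244 in WD_CD, and 49.6, 85.0 and 214 in CD_CD. The groups did not overlap, and Runx1 rose by 2.08 ± 0.42 on the log2 scale (limma adjusted p = 0.00215), a call lost with equal library totals (0.67, adjusted p = 0.166). Runx3, known from T cells, NK cells and some myeloid cells, had 221, 538 and 269 normalised counts in WD_WD, 692, 406 and 114 in CD_WD, 49.2, 16.7 and 5.35 in WD_CD, and 1.39, 11.9 and 53.6 in CD_CD. It was counted with 8 reads in WD_CD replicate 3 and 4 in CD_CD replicate 1, and every WD offspring library was above every CD offspring library, with a log2 fold change of 4.45 ± 0.82 (adjusted p = 0.00128). The T and NK cell sum ran from 3327 to 59640 in WD offspring, against 222 to 2472 in CD offspring. Runx2, the bone factor that some immune cells also use, ranged from 71.3 to 337 (median 125) in WD offspring, against 21.5 to 142 (median 48.6) in CD offspring and missed the threshold at 1.52 ± 0.58 (adjusted p = 0.0540); it passed without WD_CD replicate 1 (1.86, adjusted p = 0.0237), without WD_WD replicate 3 (1.79, adjusted p = 0.0304) and with DESeq2 (1.48, adjusted p = 0.0227).

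Klf6 and Klf10 were the KLF factors that rose. Klf6, an immediate early gene of injured endothelium and of macrophages, had 5094, 13985 and 9519 normalised counts in WD_WD, 13092, 9895 and 10250.1 in CD_WD, 4266, 4799.8 and 4514 in WD_CD, and 3578, 4648 and 4003 in CD_CD. No WD offspring library came below a CD offspring library, and Klf6 rose by 1.20 ± 0.26 on the log2 scale (limma adjusted p = 0.00358), but stood at -0.22 with equal library totals. Klf10, induced by TGFβ, had 3773, 4696 and 7424 normalised counts in WD_WD, 8326, 5356 and 4611 in CD_WD, 1362, 2001 and 1707 in WD_CD, and 1749, 1590.1 and 1025 in CD_CD. It rose without overlap at 1.83 ± 0.25 (adjusted p = 0.000193), and with equal library totals stood at 0.42 and did not pass (adjusted p = 0.180).

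**Figure D3:**
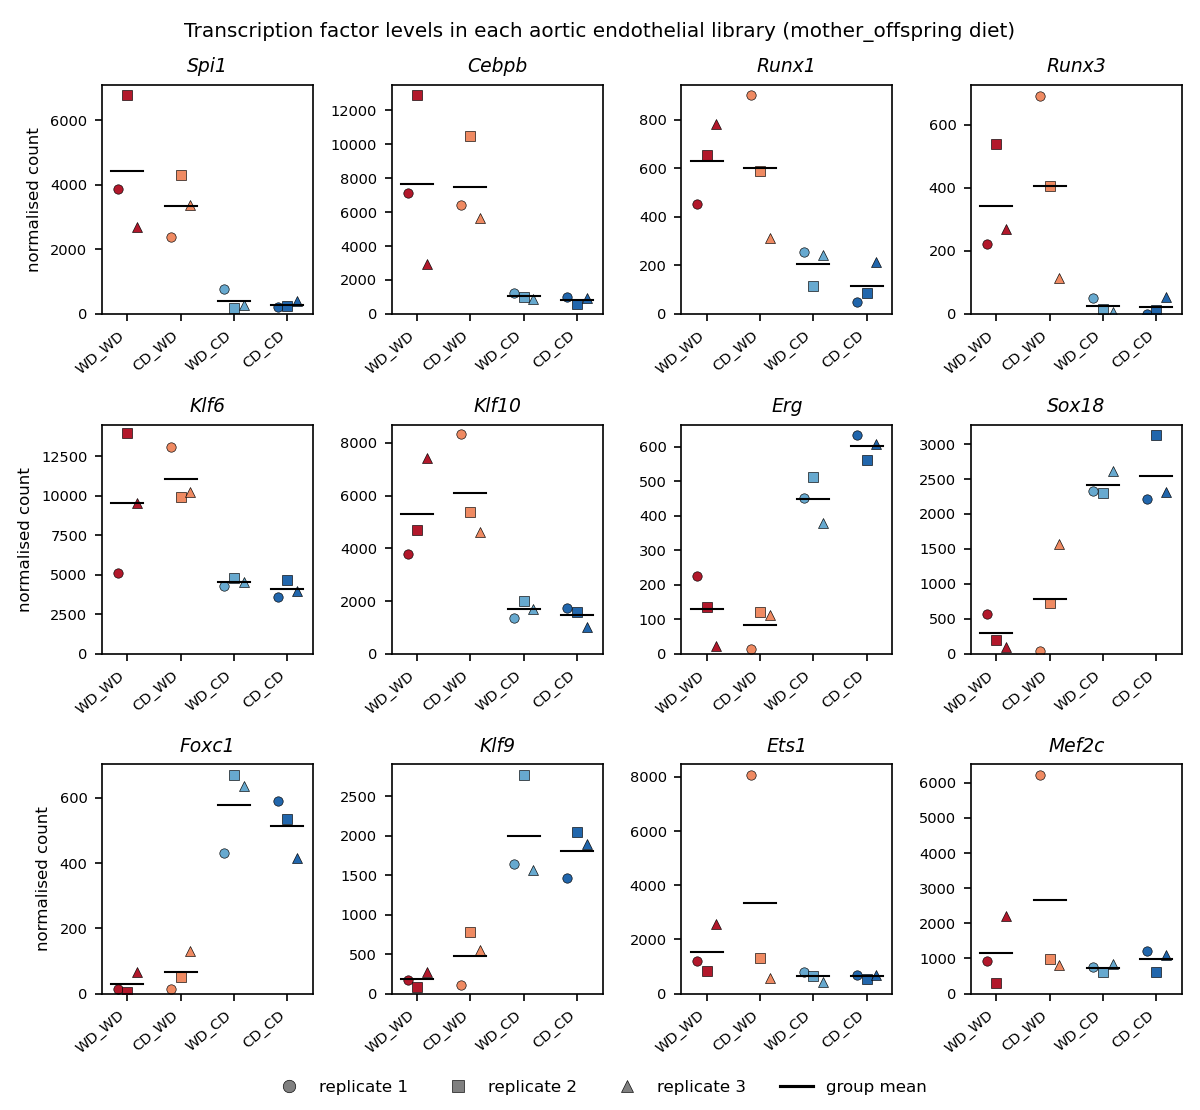
Normalised counts (linear axes starting at 0) of 12 of the transcription factors in each library, in the order WD_WD, CD_WD, WD_CD and CD_CD, with lines at group means. Spi1, Cebpb, Runx1, Runx3, Klf6 and Klf10 sit higher in every WD offspring library, Erg, Sox18, Foxc1 and Klf9 sit lower, and Ets1 and Mef2c peak in CD_WD replicate 1 at 8079.9 and 6229.

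The remaining ETS genes split. Erg, the ETS factor most closely tied to endothelium, had 226, 136 and 23.8 normalised counts in WD_WD, 12.7, 121 and 112 in CD_WD, 451, 513 and 378 in WD_CD, and 633, 562 and 607 in CD_CD. Every WD offspring library was below every CD offspring library, and Erg fell at a log2 fold change of -2.83 ± 0.62 (limma adjusted p = 0.00390). Without CD_WD replicate 1, where it was lowest, the value was -2.32 (adjusted p = 0.00279). Fli1, its close relative, which blood cells share, had 475, 766 and 911 normalised counts in WD_WD, 994, 552 and 919 in CD_WD, 816, 838 and 886 in WD_CD, and 1134, 818 and 1231 in CD_CD. These ranges overlapped widely, and Fli1 did not pass at -0.34 ± 0.24 (adjusted p = 0.291). Its neighbour on chromosome 9, Ets1, an ETS factor of endothelium and lymphocytes, had 1209.8, 836 and 2586 normalised counts in WD_WD, 8079.9, 1329 and 593 in CD_WD, 810.3, 665 and 440.0 in WD_CD, and 689.7, 524 and 686 in CD_CD. Ets1 was highest in CD_WD replicate 1 and overlapped between diets, and its 1.36 ± 0.52 missed the threshold (adjusted p = 0.0572); it stood at 0.83 without CD_WD replicate 1 (adjusted p = 0.0613), passed without CD_WD replicate 3 (1.77, adjusted p = 0.00903) and was -0.06 with equal library totals. It also passed on recovered reads with edgeR (1.71, adjusted p = 0.025) and DESeq2 (1.83, adjusted p = 0.00236).

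Elk3, a repressor of the ternary complex group that is prominent in endothelium, had 794, 711 and 717 normalised counts in WD_WD, 426, 523 and 955 in CD_WD, 1548, 1209 and 1541 in WD_CD, and 2698, 1759.7 and 1502 in CD_CD. It fell without overlap, at a log2 fold change of -1.32 ± 0.25 (limma adjusted p = 0.00146). The widely expressed Ets2, Elk1 and Elk4 did not pass, with 0.24 ± 0.36, -0.27 ± 0.63 and -0.92 ± 0.41, though Elk4 passed without WD_WD replicate 3 (-1.25, adjusted p = 0.0173). Set against the mean of the 15 endothelial markers in the same library, both on the log2 scale, Erg lay at -4.33 to -1.29 (median -3.16) in WD offspring, against -3.07 to -2.39 (median -2.74) in CD offspring. The same difference for Fli1 was -1.05 to 3.09 (median 0.11) in WD offspring, against -2.20 to -1.54 (median -1.80) in CD offspring, and for Ets1 -1.28 to 6.11 (median 0.89) in WD offspring, against -2.85 to -1.55 (median -2.53) in CD offspring. Fli1 and Ets1 thus stood higher against the markers in WD offspring, with no overlap between the diets, while Erg overlapped. The marker mean itself was lower there (median 9.37, against 11.8 in CD offspring), so a gene that changes little also stands higher against it. The highest values of Fli1 and Ets1 came from CD_WD replicate 1, where the marker mean was 6.87. These differences are descriptions with no test.

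All 4 Sox genes fell in WD offspring without overlap between the diets, as 14 of the 15 endothelial markers fell. Sox18, the SOXF factor of lymphatic and blood vessels, had 573, 196 and 103 normalised counts in WD_WD, 33.0, 732 and 1576 in CD_WD, 2330.2, 2297 and 2618 in WD_CD, and 2211, 3125 and 2314 in CD_CD. Its log2 fold change was -3.15 ± 0.75 (limma adjusted p = 0.00614), and -2.32 without CD_WD replicate 1, where it was by far the lowest (adjusted p = 0.000401). Sox7, its partner in the same group, had 188, 77.3 and 19.8 normalised counts in WD_WD, 17.7, 111 and 345 in CD_WD, 536, 1222 and 819.8 in WD_CD, and 881, 1344 and 555 in CD_CD. CD_WD replicate 1 and WD_WD replicate 3 were lowest, and Sox7 fell at -3.43 ± 0.68 (adjusted p = 0.00213). Sox13, a SOXD factor found in the arterial wall and in some T cells, had 56.5, 42.5 and 7.92 normalised counts in WD_WD, 10.1, 179.9 and 172 in CD_WD, 379, 766 and 684 in WD_CD, and 724, 834 and 605 in CD_CD. It fell at -3.86 ± 0.70 (adjusted p = 0.00115), and at -3.20 without CD_WD replicate 1 (adjusted p = 0.000217). Sox4, a SOXC factor of many progenitor cells, had 383, 305 and 463 normalised counts in WD_WD, 393, 370.3 and 319 in CD_WD, 774, 605 and 837 in WD_CD, and 798, 671 and 489 in CD_CD. Its fall was the smallest of the 4, at -0.89 ± 0.23 (adjusted p = 0.00954), and 54.6% of its exon bases overlap Gm26735, so the strand limit given for Cebpb holds here as well.

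Sox genes were also set against the endothelial markers of the same library. Sox18 minus the marker mean was -2.26 to 0.13 (median -0.71) in WD offspring, against -0.85 to -0.02 (median -0.43) in CD offspring on the log2 scale. For Sox7 it was -4.58 to -2.06 (median -2.43) in WD offspring, against -2.90 to -1.49 (median -2.03) in CD offspring, and for Sox13 -5.80 to -2.66 (median -3.22) in WD offspring, against -2.78 to -2.17 (median -2.30) in CD offspring. The diets overlapped for all 3.

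Among the GATA factors and their partners, Gata2 and Gata6 fell and Gata3, Tal1 and Lyl1 did not pass. Gata2, shared by endothelium and blood progenitors, had 943, 397 and 281 normalised counts in WD_WD, 241, 665 and 1315 in CD_WD, 1492, 1458 and 1090.0 in WD_CD, and 1465, 2219 and 1578 in CD_CD. CD_WD replicate 3 reached the CD offspring range, and the log2 fold change was -1.51 ± 0.40 (limma adjusted p = 0.0105). Gata6, a factor of smooth muscle, endothelium and heart, had 269.7, 69.8 and 83.1 normalised counts in WD_WD, 10.1, 155 and 387 in CD_WD, 776, 1062 and 2014 in WD_CD, and 1305, 1345 and 882 in CD_CD. It fell without overlap at -3.53 ± 0.71 (adjusted p = 0.00233), and at -2.79 without CD_WD replicate 1 (adjusted p = 0.000198). The smooth muscle sum, whose markers fell too, was 8894 to 23886 in WD_WD and 1214 to 12739 in CD_WD, against 12468 to 58341 in WD_CD and 48896 to 85614 in CD_CD. Gata2 minus the endothelial marker mean was -0.82 to 1.05 (median -0.01) in WD offspring, against -1.54 to -0.67 (median -1.31) in CD offspring on the log2 scale.

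Tal1, which forms a complex with LMO2 and GATA factors, had 71.9, 10.6 and 43.6 normalised counts in WD_WD, 2.54, 60.7 and 80.1 in CD_WD, 77.6, 186 and 71.6 in WD_CD, and 176, 145 and 103 in CD_CD. CD_WD replicate 3 and WD_WD replicate 1 reached the lowest CD offspring values, and -2.01 ± 0.81 missed the threshold (limma adjusted p = 0.0670); without CD_WD replicate 3 it passed (-2.42, adjusted p = 0.04). Gata3, known from T cells and from some vessels, had 198, 3.03 and 111 normalised counts in WD_WD, 221, 103 and 202 in CD_WD, 87.4, 209.6 and 415 in WD_CD, and 307, 327 and 275 in CD_CD. It ranged widely in both diets and did not pass at -1.50 ± 0.81 (adjusted p = 0.162). Lyl1, the relative of Tal1, did not pass either, at -0.61 ± 0.35; its highest value, 672, was in CD_WD replicate 1.

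Every measured Hox gene came from the A and B clusters, and all 8 had a lower average in WD offspring, 5 of them past the threshold. On GRCm38.p6 the A genes run from Hoxa5 at chr6:52201754-52204587 through Hoxa7 at chr6:52215623-52218573 to Hoxa9 at chr6:52223097-52227370. The B genes run from Hoxb9 at chr11:96271330-96276595 to Hoxb2 at chr11:96351632-96354020. Among them Hoxb2 had the largest change, with 38.5, 0 and 0 normalised counts in WD_WD, 0, 69.0 and 173 in CD_WD, 216, 510.0 and 536 in WD_CD, and 371, 279 and 198 in CD_CD. It had 0 reads in CD_WD replicate 1 and in WD_WD replicates 2 and 3, every CD offspring library was higher than every WD offspring library, and the log2 fold change was -5.21 ± 1.25 (limma adjusted p = 0.00630; -3.41 with DESeq2). Without CD_WD replicate 1 it was -4.08 (adjusted p = 0.00410), -5.94 without CD_WD replicate 3 and -6.09 without WD_WD replicate 1.

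Hoxa5 ranged over 5.07 to 202 (median 71.1) in WD offspring, against 246 to 568 (median 367) in CD offspring, with no overlap, and fell at -3.11 ± 0.86 (limma adjusted p = 0.0134; -2.39 without CD_WD replicate 1 and -2.46 without WD_WD replicate 2). Hoxa9 ranged over 5.07 to 158 (median 31.2) in WD offspring, against 107 to 329 (median 264) in CD offspring. WD_WD replicate 2 reached the CD offspring range, and Hoxa9 fell at -2.93 ± 0.79 (adjusted p = 0.0112; -3.52 without WD_WD replicate 2). Hoxb7 ranged over 0 to 104 (median 34.8) in WD offspring, against 108 to 271 (median 145) in CD offspring and fell at -2.89 ± 0.99 (adjusted p = 0.0363), with no overlap; 7 of the 12 fits with 1 library left out lost the call, namely those without CD_WD replicate 1 or 2, WD_CD replicate 1 or 2, or any CD_CD replicate (adjusted p at most 0.0735). Without WD_WD replicate 2 it stood at -3.57, and at -1.95 without WD_WD replicate 3. Hoxb3 ranged over 1.52 to 55.4 (median 12.5) in WD offspring, against 32.1 to 125 (median 58.5) in CD offspring and passed narrowly at -2.46 ± 0.87 (adjusted p = 0.0418), a call that held only without WD_WD replicate 3 or CD_CD replicate 3 among the fits with 1 library left out (adjusted p at most 0.102; -3.10 without WD_WD replicate 3). Hoxb3 and Hoxb7 also lost their calls in edgeR and with the replicate number as a block, and Hoxb3 with a minimum mean of 50. Hoxa7, Hoxb6 and Hoxb9 did not pass, with -1.62 ± 0.73, -2.03 ± 0.94 and -2.66 ± 1.04; Hoxa7 passed without CD_WD replicate 3 (-2.08, adjusted p = 0.0355) and Hoxb9 without it (-3.20, adjusted p = 0.0336) or without WD_WD replicate 1 (-3.22, adjusted p = 0.0315).

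**Figure D4:**
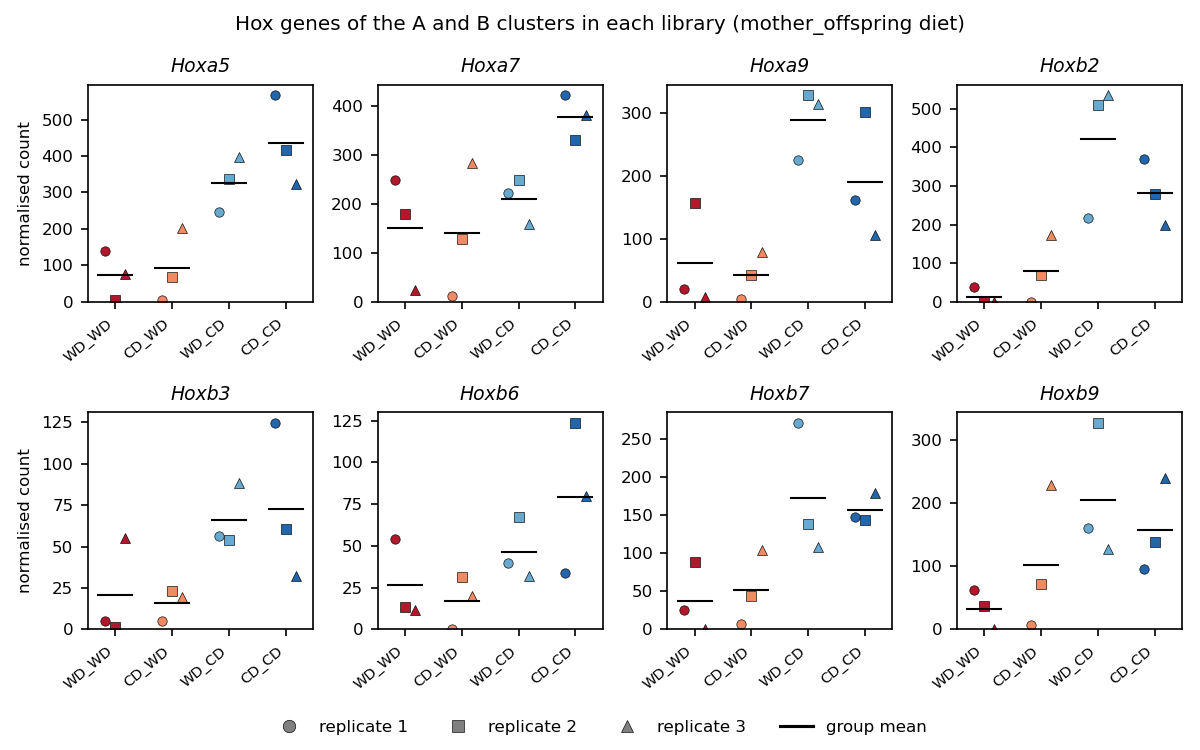
Normalised counts of the 8 measured Hox genes in each library on linear axes, in the order WD_WD, CD_WD, WD_CD and CD_CD, with lines at group means. Hoxb2 is at 0 in 3 of the 6 WD offspring libraries, and CD_WD replicate 1 lies at or below 12.7 for every gene shown.

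Several Hox genes lie under antisense transcripts. Hoxb3os covers 52.9% of the Hoxb3 and 27.3% of the Hoxb2 exon bases, and Hoxaas3 covers 20.4% of those of Hoxa7, so their reads cannot be told apart here. Meox1, a homeobox factor of smooth muscle and fibroblast activation, had 252, 0 and 0 normalised counts in WD_WD, 10.1, 159 and 12.1 in CD_WD, 205, 275 and 33.4 in WD_CD, and 281, 42.1 and 189 in CD_CD. It was high in some libraries of each diet and at 0 in 2 WD_WD libraries, and -3.26 ± 1.36 did not pass (limma adjusted p = 0.0761); without WD_WD replicate 1 it passed (-4.59, adjusted p = 0.00431).

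Foxc1 fell most among the Fox genes. This forkhead factor, needed for arterial and lymphatic vessels and found in mural cells and fibroblasts, had 12.8, 4.55 and 67.3 normalised counts in WD_WD, 15.2, 50.2 and 129 in CD_WD, 432, 669 and 637 in WD_CD, and 591, 537 and 415 in CD_CD. The highest WD offspring value was far below the lowest CD offspring value, and the log2 fold change was -4.23 ± 0.64 (limma adjusted p = 0.000350). Few reads lay behind most of the WD offspring values, with 5, 3 and 17 in WD_WD and 6, 24 and 150 in CD_WD. Against the endothelial marker mean of its library it lay at -5.98 to -2.85 (median -3.98) in WD offspring, against -3.32 to -2.31 (median -2.57) in CD offspring on the log2 scale. Foxj2 ranged over 11.9 to 127 (median 45.0) in WD offspring, against 130.4 to 329 (median 192) in CD offspring, so the diets nearly touched, and fell at -2.17 ± 0.57 (adjusted p = 0.00983).

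The other 9 Fox genes did not pass. Foxo1, which restrains endothelial growth and is also needed in B cells, had 778, 362 and 428 normalised counts in WD_WD, 2370.5, 780.5 and 706 in CD_WD, 739.8, 1036 and 1376 in WD_CD, and 1135, 1416 and 1064 in CD_CD. CD_WD replicate 1 was the highest of all and the other WD offspring libraries were at the low end, with -0.59 ± 0.33 over all libraries (limma adjusted p = 0.182) and a call of -0.86 without that library (adjusted p = 0.0169). Foxp1, a factor of endothelium and lymphocytes, showed the same arrangement, with 3458 in CD_WD replicate 1 and 657 to 1164 in the other WD offspring libraries, against 1576 to 2211 in CD offspring. It missed the threshold at -0.79 ± 0.32 (adjusted p = 0.0717) and passed without that library at -1.10 (adjusted p = 0.000954). Foxn3 was highest there too, at 4272, and its 0.78 ± 0.41 passed only without CD_WD replicate 3 (1.08, adjusted p = 0.0362). Foxj3, Foxk1, Foxk2, Foxn2, Foxo3 and Foxp4 had log2 fold changes of -1.11 ± 0.53, -0.49 ± 0.60, -1.15 ± 0.57, -0.60 ± 0.59, 0.50 ± 0.88 and -1.14 ± 0.66, of which Foxj3 passed without WD_WD replicate 3 (-1.45, adjusted p = 0.0362).

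Klf9 and Klf7 fell while Klf6 and Klf10 rose. Klf9, a target of glucocorticoid and thyroid hormone receptors, had 177, 88.0 and 277 normalised counts in WD_WD, 109, 783 and 554 in CD_WD, 1639.6, 2770.4 and 1569 in WD_CD, and 1463, 2054 and 1897 in CD_CD. The lowest CD offspring library was well above the highest WD offspring library, and the log2 fold change was -2.93 ± 0.45 (limma adjusted p = 0.000410). Its difference from the endothelial marker mean of the same library was -2.30 to -0.09 (median -1.11) in WD offspring, against -1.38 to -0.32 (median -0.94) in CD offspring on the log2 scale, with overlap. Klf7, known from neurons and fat cell precursors, had 403, 370.0 and 329 normalised counts in WD_WD, 431, 663 and 569 in CD_WD, 832, 1461 and 1129 in WD_CD, and 1056, 1369 and 1296 in CD_CD. It fell without overlap at -1.39 ± 0.22 (adjusted p = 0.000520), and 39.3% of its exon bases overlap Gm26649. Klf3, Klf11, Klf13 and Klf16 did not pass, with 0.53 ± 0.27, -0.78 ± 0.41, -0.05 ± 0.28 and -0.26 ± 0.44.

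Mef2a, a MADS box factor of muscle and endothelium, had 195, 159 and 245 normalised counts in WD_WD, 145, 182 and 396 in CD_WD, 528, 973 and 452 in WD_CD, and 646, 698 and 514 in CD_CD. It fell without overlap at -1.56 ± 0.32 (limma adjusted p = 0.00244). Mef2c, which endothelium, muscle and B cells all use, had 938, 300.3 and 2197 normalised counts in WD_WD, 6229, 975 and 808 in CD_WD, 768, 625 and 833 in WD_CD, and 1218, 604 and 1102 in CD_CD. Apart from the very high CD_WD replicate 1 the diets overlapped, and 0.54 ± 0.54 did not pass (adjusted p = 0.460), with 0.07 without that library and -0.88 with equal library totals. Mef2d did not pass at 0.03 ± 0.33. Tbx1, a T-box factor of the pharyngeal arteries and lymphatic vessels, ranged over 2.54 to 221 (median 90.0) in WD offspring, against 167 to 629 (median 358) in CD offspring and fell at -3.11 ± 1.01 (adjusted p = 0.0279). CD_WD replicate 3 overlapped the CD offspring, the value was -2.21 without CD_WD replicate 1 and -3.70 with CD_WD replicate 3 left out, it was -2.40 when WD_WD replicate 3 was dropped, and the call was lost without WD_WD replicate 3, WD_CD replicate 1 or CD_CD replicate 1 or 2 (adjusted p at most 0.0632).

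CD_WD replicate 1 held the highest value of 13 factors (22.8%, against 17.7% of all genes). They were Ets1, Foxk1, Foxn3, Foxo1, Foxp1, Klf3, Klf10, Klf13, Lyl1, Mef2c, Mef2d, Runx1 and Runx3. Ets1 stood at 8.41 times and Mef2c at 6.99 times the mean of the other CD_WD libraries. In this library the B cell sum was 335294, against 4210.0 to 16691 in the other 5 WD offspring libraries, and the T and NK cell sum 59640, against 3327 to 18439. Its dendritic and MHC class II sum was 3728490, against 360263 to 914284 in those 5. The macrophage sum was lower than in those 5, at 40501, against 367260 to 1028122. Spib, an ETS factor of B cells and dendritic cells outside the chosen genes, rose in WD offspring by 5.23 ± 1.24 (limma adjusted p = 0.00578). Whether these marker levels account for the factors was not tested.

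Genes known to work with or under these factors were counted from lists compiled with earlier results of these data known. Of 9 measured endothelial targets of ERG and FLI1, Cdh5, Cldn5 and Vwf among them, all 9 fell, with a median log2 fold change of -2.80, against -0.02 over all genes. Of 8 measured myeloid targets of PU.1 and C/EBP factors 6 rose, namely Fcgr1, Csf2ra, Csf3r, Cd14, Ncf1 and Cybb, with a median of 2.68. Nearly all of the measured ERG and FLI1 targets are also among the endothelial markers given above, so their fall largely repeats that result. The myeloid targets share some genes with the macrophage and neutrophil markers. Whether the factors act on these genes here was not tested. Of 9 partners of GATA, TAL1 and RUNX factors 4 fell: Lmo2, the bridging protein of the TAL1 complex, at -1.31 ± 0.32, Tcf4 at -1.17 ± 0.21, Tcf12 at -1.51 ± 0.47 and Cbfa2t3 at -3.12 ± 0.41. Of 8 coregulators of MEF2 and SRF, 4 fell: Srf, Mkl2, Hdac7 and Mamstr. Of 9 other ETS genes, 2 rose, Etv3 at 0.90 ± 0.32 and Spib. This list had 4 averages higher and 5 lower, with a median log2 fold change of -0.10. Over all genes 20.1% were called higher and 17.6% lower, so 2 rises in 9 genes are near the general share.

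The effect of the offspring's diet was also taken within each mother's diet. With WD mothers 5 of the 57 factors rose and 10 fell, where 24.4% of all genes passed (14.2% higher and 10.2% lower). With CD mothers 6 rose and 9 fell, where 15.0% passed (9.46% higher and 5.55% lower). Called with both were Spi1, Cebpb, Klf10 and Runx3 in the higher direction, which is 80.0% of the list with WD mothers and 66.7% of that with CD mothers. In the lower direction these were Foxc1, Gata6, Klf7, Klf9, Mef2a, Sox7 and Sox13, 70.0% of the list with WD mothers and 77.8% of that with CD mothers. None was called in opposite directions. Without CD_WD replicate 1, CD mothers gave 5 higher and 3 lower calls, with 12.3% of all genes called. Spi1, Cebpb, Klf10 and Gata6 were then the shared ones still called with CD mothers. Runx3 (limma adjusted p = 0.0601), Mef2a (0.116), Sox7 (0.107) and Sox13 (0.0852) lost their calls, as did Foxc1, Klf7 and Klf9. Groups that did not overlap were found for 8 higher and 23 lower factors with WD mothers (21.9% and 19.4% of all genes) and for 9 higher and 24 lower with CD mothers (21.9% and 21.6%).

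Among the genes with the smallest p, Spi1 had log2 fold changes of 3.56 ± 0.51 with WD mothers and 3.54 ± 0.51 with CD mothers (limma adjusted p = 0.000786 and 0.00149). Cebpb had 2.67 ± 0.47 and 3.13 ± 0.47 (adjusted p = 0.00217 and 0.00167), and Klf10 1.61 ± 0.36 and 2.06 ± 0.36 (adjusted p = 0.00806 and 0.00337). These 3 rises held in both comparisons with any 1 library left out; with equal library totals Klf10 lost both calls (0.22 with WD mothers and 0.61 with CD mothers) and Cebpb the one with WD mothers (1.28, adjusted p = 0.0525). Foxc1 fell at -5.04 ± 0.90 with WD mothers and -3.42 ± 0.90 with CD mothers (adjusted p = 0.00249 and 0.0243), Klf9 at -3.55 ± 0.64 and -2.30 ± 0.64 (adjusted p = 0.00249 and 0.0297), and Klf7 at -1.60 ± 0.31 and -1.17 ± 0.31 (adjusted p = 0.00407 and 0.0256). Elk3 passed with CD mothers at -1.69 ± 0.35 (adjusted p = 0.00748) and stood at -0.94 ± 0.35 with WD mothers (adjusted p = 0.0660). Erg passed with CD mothers at -3.39 ± 0.88 (adjusted p = 0.0229) and stood at -2.28 ± 0.88 with WD mothers (adjusted p = 0.0776); the difference between them is the interaction, 1.11 ± 1.25, which did not pass.

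The calls within a mother's diet rested on few libraries. With WD mothers Spi1, Cebpb, Klf10, Foxc1, Klf7, Klf9 and Sox13 kept their calls whichever library was left out, 7 of 15. The number called was 28 without CD_WD replicate 1, where 31.3% of all genes passed, and 8 without WD_CD replicate 2 or 3. With CD mothers Spi1, Cebpb, Klf10 and Elk3 kept theirs, 4 of 15, and the number called was 4 without CD_CD replicate 1 or 2, 6 without CD_CD replicate 3 and 8 without CD_WD replicate 1. In the last of these fits 12.3% of all genes passed. For the fits without a CD_CD or WD_CD replicate the share of all genes called is not given here. Their counts therefore cannot be read as particular to the factors. Without CD_WD replicate 1, Erg stood at -2.35 with CD mothers (adjusted p = 0.0536), Foxc1 at -2.64 (adjusted p = 0.0724), Klf7 at an adjusted p of 0.0532, and Klf9 at -1.44 (adjusted p = 0.0530). These 4 also lost their calls with CD mothers when any CD_CD replicate was left out, and Foxc1 did without CD_WD replicate 2 (adjusted p at most 0.102 over the 4). Foxc1 stood at -4.15 with CD mothers without CD_WD replicate 3, and with WD mothers at -4.21 without WD_WD replicate 2 and -6.02 without WD_WD replicate 3, past the threshold each time.

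The mother's diet changed none of these factors past the threshold, in either offspring diet, where 0.0% of all 10655 genes passed in limma. No gene passed in edgeR either, while DESeq2 called 14 genes in WD offspring and 9 in CD offspring. In WD offspring, 0 factors passed in limma, edgeR or DESeq2, and 5, 7 and 7 had an unadjusted p under 0.05 in these tools. The smallest p in the lower direction belonged to Klf3, a repressor of the KLF family, with 1819, 1427 and 804 normalised counts in WD_WD, against 4198, 2461 and 2077 in CD_WD. These did not overlap, but the log2 fold change of -1.12 ± 0.39 did not pass (limma adjusted p = 0.836). The smallest in the higher direction belonged to Cebpa, with 177, 180.5 and 329 in WD_WD, against 25.4, 79.5 and 75.7 in CD_WD, at 2.01 ± 0.82 (adjusted p = 0.836). The groups did not overlap for 1 higher factor, Cebpa, and 3 lower ones, Klf3, Klf7 and Klf16, where 5.86% and 4.16% of all genes did so; Klf7 and Klf16 were named after their values were seen. The macrophage sum was 557539 to 1028122 in WD_WD, against 40501 to 540119 in CD_WD.

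In CD offspring, 0 factors passed in the 3 tools, and 0 had an unadjusted p under 0.05 in any of them. Of all 10655 genes, 276, 182 and 318 did so in limma, edgeR and DESeq2. Runx1 had 255, 115 and 244 normalised counts in WD_CD, against 49.6, 85.0 and 214 in CD_CD, at 0.99 ± 0.59 (limma adjusted p = 1.000), the smallest p in the higher direction. Elk3 had 1548, 1209 and 1541 in WD_CD, against 2698, 1759.7 and 1502 in CD_CD, at -0.44 ± 0.35 (adjusted p = 1.000), the smallest in the lower. Both pairs of groups overlapped. They did not for 1 higher factor, Foxj2, and 3 lower ones, Erg, Hoxa7 and Klf16, where 4.0% and 4.87% of all genes did so; these were named after their values were seen. Erg had 451, 513 and 378 in WD_CD, against 633, 562 and 607 in CD_CD, with a fitted -0.43 ± 0.88. In the authors' deposited table of both maternal comparisons, no factor had an adjusted p under 0.05, and the lowest were 0.243 in WD offspring and 1.00 in CD offspring.

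**Figure D5:**
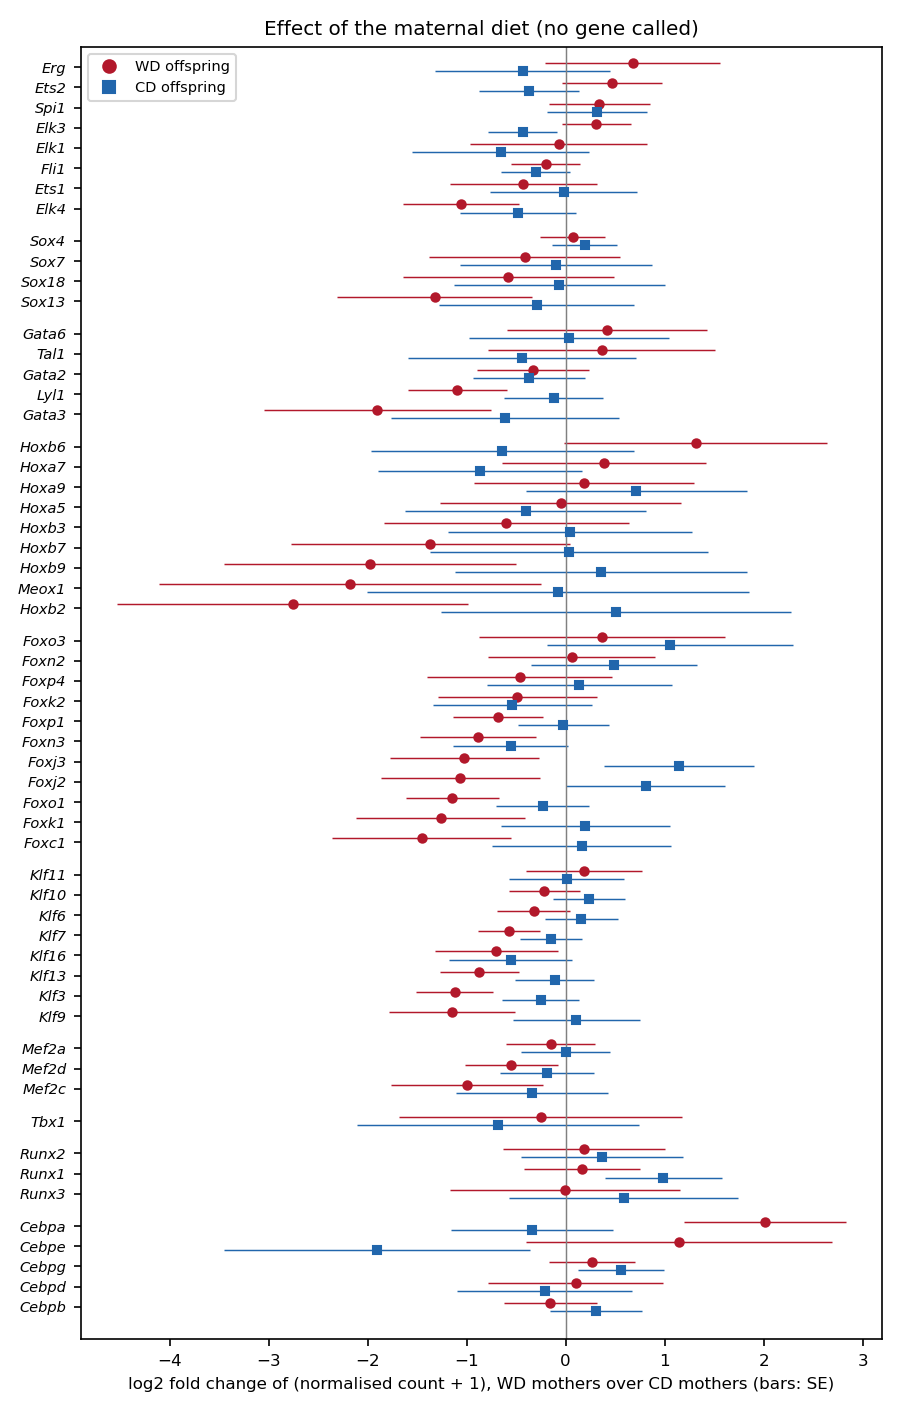
Log2 fold change of normalised count plus 1, WD mothers over CD mothers, for the 57 transcription factors in WD offspring and in CD offspring, with standard errors. No point passed limma's adjusted p of 0.05; Cebpa in WD offspring lies at 2.01 ± 0.82 and Klf3 at -1.12 ± 0.39.

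The difference between both maternal effects, WD offspring minus CD offspring, was not called for any factor (0.0% of all genes in limma). DESeq2 called 10 of all genes. No factor had an unadjusted p under 0.05 in limma, edgeR or DESeq2, where 342, 306 and 453 of all 10655 genes did. The smallest p in the higher direction was that of Cebpa at 2.35 ± 1.15 and in the lower that of Foxj3 at -2.17 ± 1.07 (limma adjusted p = 0.997 for both). Foxj3, a little studied forkhead factor, had 38.5, 21.2 and 123 normalised counts in WD_WD, 109, 77.4 and 105 in CD_WD, 126, 249.8 and 326 in WD_CD, and 45.8, 157 and 129.8 in CD_CD. The WD_CD libraries lay above both WD offspring groups and overlapped CD_CD. Standard errors of the interaction ran from 0.44 for Klf7 to 2.73 for Meox1 on the log2 scale.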

How the data were processed

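RNA of mouse aortic endothelial cells was sequenced in 12 libraries, 3 per group. Per the submitters' processing notes, the genome was GRCm38 (mm10) and the tools named were featureCounts 2.0.1, HISAT2 2.2.1, SAMtools 1.13, DESeq2, Trim Galore 0.6.10 and FastQC 0.12.1, with no settings. How strand was handled is not given in the sources used here. Per gene and library, the authors deposited a normalised signal, that is, a read count divided by a size factor: 100% of 127860 values were whole reads within a tolerance of 0.01. Per the file headers, the authors also deposited p-values, raw and adjusted, and log2 fold changes for both maternal comparisons.

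Values were put on a log2 scale with a pseudocount of 1 and tested with limma 3.58.1 (R 4.3.3) with a mean-variance trend. This was 1 model of all 12 libraries with a mean per group and 8 residual degrees of freedom. Fold changes of low genes with values of 0 depended on the tool and can be larger here. Averaged over mothers, Hoxb2 stood at -5.21 in limma, against -3.41 with DESeq2, and Cebpe at 3.43, against 2.40. Adjustment was by Benjamini-Hochberg over 10655 genes, called under 0.05; no gene was filtered. The plan named edgeR's quasi-likelihood test for raw counts; as the values are normalised, edgeR 4.0.16 and DESeq2 1.42.0 were run on the recovered reads as alternatives. Other alternatives were pseudocounts of 0.5 and 5, a minimum mean of 50, TMM scaling, equal library totals, a replicate block, the compared groups alone and single libraries left out. The fit was tested on simulated data.

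The genes, lists and tests were chosen with earlier results of these data known. Values per library are given for the called genes with the smallest p (up to 12 per direction for the offspring diet averaged over mothers, up to 3 otherwise, or the smallest p where none passed) and for 19 fixed factors where measured; values of other factors were added after they were seen. Exon overlaps and exon lengths come from GENCODE M21. ATAC-seq and ChIP-seq were not analysed here. Some genes of the marker and partner lists are not reported here.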

Additional observations from a re-analysis of the deposited data

How the results depend on the processing

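Equal library totals moved most results. Averaged over mothers 47 of the 57 factors were called, 38 with WD mothers (1 higher, 37 lower) and 34 with CD mothers (3 higher, 31 lower). The median of all genes then lay at -1.40, -1.36 and -1.45 in these comparisons. The share of all genes called is not given here, so these counts cannot be read as particular to the factors. Of the factors with values per library, Klf6 (-0.22), Cebpa (-0.30), Ets1 (-0.057) and Mef2c (-0.88) changed from above 0 to below it, by about as much as the median of all genes moved. TMM scaling put the median of all genes at -0.12 and kept all 26 calls averaged over mothers. Fitted on the compared groups alone, CD mothers gave 9 calls. Leaving out 1 library gave 22 to 30 calls averaged over mothers, 8 to 28 with WD mothers and 4 to 19 with CD mothers. Leaving out CD_WD replicate 1 and WD_CD replicate 3 together was an alternative chosen after seeing the data. CD mothers then gave 8 calls, where 12.6% of all genes passed. Of the 26 calls averaged over mothers, 19 held in every setting and 22 in every setting but equal totals. The maternal comparisons and the interaction gave 0 calls among the factors in every setting. With the replicate number as a block there were 25 calls averaged over mothers, without Hoxb3 and Hoxb7, 14 with WD mothers and 13 with CD mothers. The share of all genes called is not given here for the block, the compared groups alone or most fits with 1 library left out. Those counts likewise cannot be read as particular to the factors. Same-numbered libraries did not deviate together (r -0.23 to 0.07) and 0 libraries were closest to their own number, so the numbers were not taken as pairs. Precision is limited by 3 libraries a group; in WD_WD replicate 3, 1 read was worth 3.96 normalised counts.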

Other observations

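Per kilobase of exon, Cebpb was the most abundant of the 57 factors in WD offspring, with a median normalised count of 4506 in WD offspring, against 638 in CD offspring, where it ranked 3. Klf6 ranked 2 in both diets. Sox18 ranked 1 in CD offspring and 8 in WD offspring, at 237 in WD offspring, against 1433 in CD offspring. Spi1 ranked 3 in WD offspring and 25 in CD offspring, at 1344 in WD offspring, against 97.9 in CD offspring per kilobase. Runx3 had the lowest rank, 57, in CD offspring and ranked 21 in WD offspring. Klf9 ranked 28 in WD offspring and 7 in CD offspring, Sox7 33 and 10, Erg 32 and 16, and Foxc1 53 and 26. These orders use exon lengths from GENCODE M21, which may not be the annotation used for counting, and they carry no test.

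Set against the mean of 12 macrophage markers in the same library on the log2 scale, Spi1 lay at -1.25 to 2.67 (median -0.50) in WD offspring, against -2.12 to -0.47 (median -1.38) in CD offspring. Cebpb lay at -1.11 to 4.10 (median 0.39) in WD offspring, against -1.34 to 1.52 (median 0.39) in CD offspring, and Klf6 at -0.47 to 5.13 (median 0.82) in WD offspring, against 0.48 to 3.82 (median 2.59) in CD offspring. Klf10 lay at -0.90 to 4.48 (median -0.08) in WD offspring, against -1.17 to 2.56 (median 0.91) in CD offspring, and Runx1 at -4.25 to 1.27 (median -3.29) in WD offspring, against -3.63 to -1.40 (median -2.54) in CD offspring. Klf6, Klf10 and Runx1 had the lower median against the markers in WD offspring, although their normalised counts were higher there. So did Cebpa (-5.35, against -4.13 in CD offspring), while Runx3 had the higher one (-4.20, against -6.15). The marker mean itself had a median of 12.6 in WD offspring, against 9.46 in CD offspring, so a gene that rose less stands lower. Each factor's highest WD offspring value came from CD_WD replicate 1, where the marker mean was 8.55. These differences were not tested.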
